A study of Drosophila melanogaster with 3 samples.

Results

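The genes described here encode 9 Drosophila proteins of insulators, GAGA-rich promoters and polytene interbands: Trl, Clamp, CTCF, BEAF-32, su(Hw), Cp190, mod(mdg4), Chro and pita. They were taken as a fixed list of names, 9 of the 13968 protein-coding genes of the Ensembl annotation on the chromosome arms, by a rule that names them and uses no threshold on binding. Each gene was given every region whose summit lay inside it or within 2 kb of it.

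The regions came from chromatin immunoprecipitation with sequencing (ChIP-seq) of Pif1B in whole pupae of Drosophila melanogaster. The flies were a transgenic line that stably expressed Pif1B with GFP at its C terminus, and DNA was recovered through an antibody to GFP. There was 1 group of 3 biological replicates, each from its own biosample with male and female pupae pooled and with the age unknown, and no other strain, stage or treatment. All values therefore describe the tagged protein in a mixture of all pupal tissues, in which few cells with strong binding and many cells with weak binding cannot be told apart.

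Insulator proteins bind short DNA sites or are recruited to them, and they limit contacts between enhancers and promoters or between neighbouring chromatin domains. In flies, CTCF, Su(Hw), BEAF-32 and Pita recognise DNA, while CP190 and Mod(mdg4) are BTB-domain cofactors that join several of them. GAGA factor, encoded by Trl, and CLAMP both bind GA repeats in open promoters. Chromator, encoded by Chro, is a chromodomain protein of the interbands of polytene chromosomes. Pif1B was first named as a partner of a PFTAIRE kinase, and the data below concern where it was found near these genes, not what the genes' own products bind.

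Of the 9 genes, 6 had a peak in the authors' list of reproducible peaks, thresholded on the irreproducible discovery rate (IDR), and 3 had no region at all even in the relaxed list of the pooled replicates. The IDR list held 6410 peaks and the pooled list 29999 regions. The 6 genes were Chro, Trl, mod(mdg4), BEAF-32, pita and Clamp, and together they carried 14 IDR summits. CTCF, su(Hw) and Cp190 carried none. For comparison, 29.7% of all protein-coding genes had an IDR summit inside or within 2 kb, and 54.6% had a pooled summit. The 9 genes are too few, and their spans too unequal, for the count of 6 to be set apart from that share.

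The stretches of sequence below show the strongest places, and some places with no pooled region or only a weak one. The su(Hw) start, also without a pooled region, is not shown, and no TATCGATA lay within 150 bp of it. All are from the plus strand of the dm6 assembly, read 5′ to 3′ from the RefSeq release of that assembly. Capitals mark matches to the searched motifs listed further on, and a stretch with no capitals held none. Where a summit lay in an untranslated region, only the gap between the outward-facing gene starts is shown.

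The first is the centre of the intronic Trl peak, the second strongest place among the 9 genes, at chr3L:14759450-14759600.
Trl intron peak: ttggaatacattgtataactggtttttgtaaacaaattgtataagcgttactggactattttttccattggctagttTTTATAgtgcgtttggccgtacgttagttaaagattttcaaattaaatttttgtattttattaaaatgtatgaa
Next is the centre of the peak upstream of mod(mdg4), near the start of tin, at chr3R:21378694-21378844.
mod(mdg4) upstream peak: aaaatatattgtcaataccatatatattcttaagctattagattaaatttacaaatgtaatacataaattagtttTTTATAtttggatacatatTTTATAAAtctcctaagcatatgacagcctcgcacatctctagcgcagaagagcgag
The gap between the starts of Chro and Ssl1, at chr3L:22878985-22879088, adjoins the strongest summit of the set.
Chro and Ssl1 gap: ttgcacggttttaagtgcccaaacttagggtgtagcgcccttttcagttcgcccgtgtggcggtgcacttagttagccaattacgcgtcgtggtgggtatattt
The gap between the outward-facing starts inside mod(mdg4), at chr3R:21365489-21365608, adjoins its inner peak.
pre-mod(mdg4)-E and pre-mod(mdg4)-V gap: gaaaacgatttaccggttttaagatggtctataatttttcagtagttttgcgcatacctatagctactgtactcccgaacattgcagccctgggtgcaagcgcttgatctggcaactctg
The interval upstream of Cp190 that was listed in replicate 2 alone lies at chr3R:15275261-15275401.
Cp190 replicate 2 region: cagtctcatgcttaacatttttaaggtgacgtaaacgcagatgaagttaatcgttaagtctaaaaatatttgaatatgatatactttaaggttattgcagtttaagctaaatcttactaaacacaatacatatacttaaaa
The bases just upstream of CTCF, at chr3L:7356714-7356813, had no pooled region, and their capitals mark a DRE and a TATA box.
CTCF upstream: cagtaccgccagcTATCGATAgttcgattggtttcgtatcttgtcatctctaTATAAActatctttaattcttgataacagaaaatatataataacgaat
Those just upstream of the shared start of mod(mdg4), at chr3R:21377402-21377501, had only a weak region, and the capitals mark a DRE and an overlapping TATA box and BEAF-32 site.
mod(mdg4) upstream: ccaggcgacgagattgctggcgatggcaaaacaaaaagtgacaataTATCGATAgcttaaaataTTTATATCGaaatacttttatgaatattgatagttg

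The strength of a region is given as the signal value that the authors' peak caller wrote for it, which is comparable within a list but has no stated scale between lists. Replicates were therefore set side by side by rank, where rank 1 is the strongest of a replicate's list. A replicate supported a peak when a region among its 6410 strongest overlapped the peak by at least 1 bp. Regions at the 9 genes spanned most of the range of the list. IDR peaks ran from 83.2 to 1932.8 in pooled signal, with a median of 137.5 over all of them and of 149.9 over the 14 at these genes. Another 12 pooled regions at the genes fell under the threshold, with signals from 21.7 to 76.3, against 95.1 for the weakest IDR peak among the members. Of the 14 peaks, 9 were supported by all 3 replicates, 3 by 2 and 2 by 1, beside 65.6% of all IDR peaks that were supported by all 3.

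**Figure D1:**
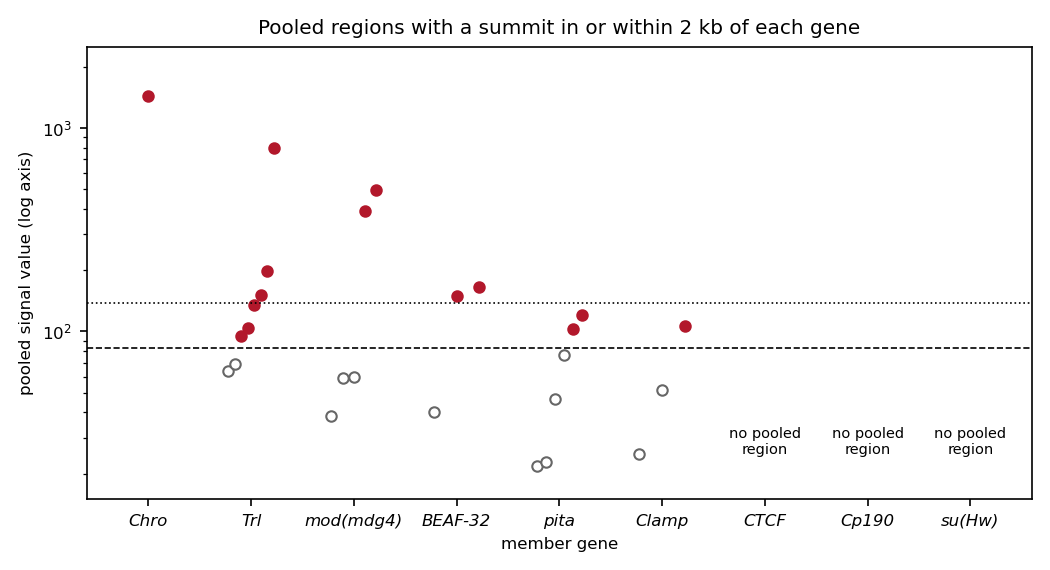
Pooled signal value (log axis) of the 26 pooled regions with a summit in or within 2 kb of each gene; filled points are IDR peaks and open points weaker regions, the dashed line is the lowest IDR signal (83.2) and the dotted line the median of all IDR peaks (137.5). Chro, Trl and mod(mdg4) reach well above the median, BEAF-32 lies near it, pita and Clamp lie under it, and CTCF, Cp190 and su(Hw) have no pooled region.

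Ordered by the strongest peak, Chro stood at 1430.3, Trl at 793.6, mod(mdg4) at 496.2, BEAF-32 at 165.1, pita at 120.4 and Clamp at 106.4. Ranks in the 3 replicates ran from 6 to 16 for Chro, from 67 to 87 for Trl, from 255 to 344 for mod(mdg4) and from 1839 to 4730 for BEAF-32. These 4 ranges did not overlap, so that order held in every replicate. The ranges of pita (3380 to 8507) and Clamp (2868 to 7750) overlapped each other, and both overlapped that of BEAF-32. Within each replicate BEAF-32 ranked ahead of both, except that in replicate 2 it fell behind pita (4834 against 3681) when the region with the nearest summit was taken. pita and Clamp changed places between replicates. Chro, Trl and mod(mdg4) each had a peak among the top 5% of the IDR list, which is rank 320 or better. The mod(mdg4) peak ordered here lay 208 bp from the start of tin, and the pita peak downstream of pita, near wmd and levy. Counting only IDR peaks within 500 bp of an own start, Trl stood at 198.4, pita at 103.0 and mod(mdg4) had none.

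**Figure D2:**
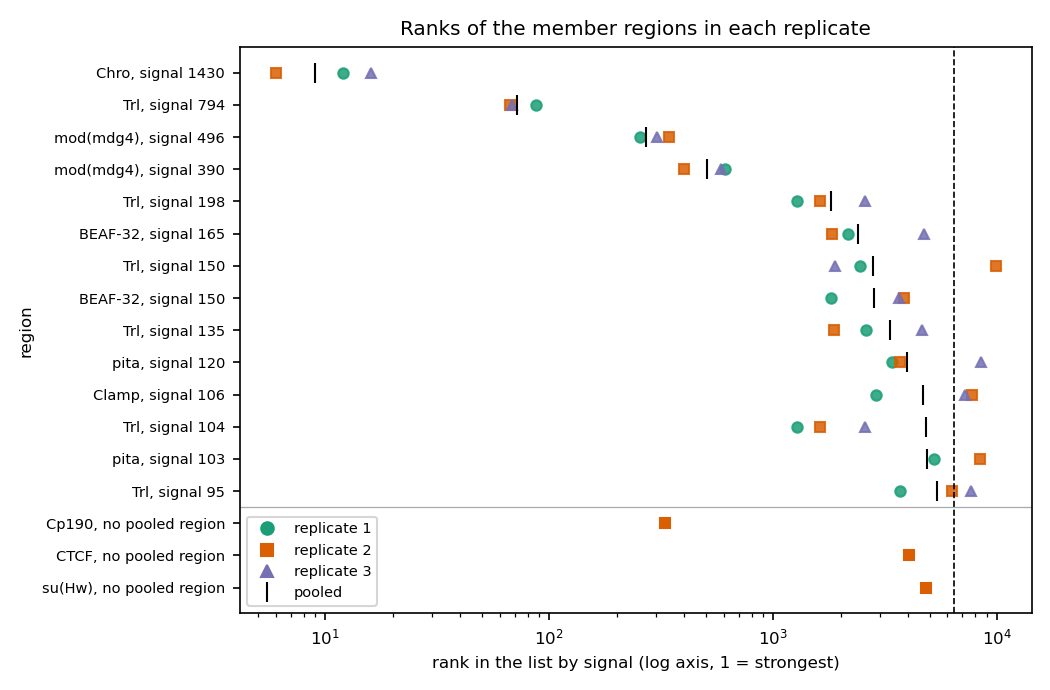
Rank (log axis, 1 is strongest) of the region overlapping each of the 14 IDR peaks in each replicate (coloured points) and in the pooled list (black ticks), and below the grey line the regions upstream of Cp190, CTCF and su(Hw) listed in replicate 2 without a pooled region. The dashed line is rank 6410. Points of the Chro, Trl and mod(mdg4) peaks lie close together, those of weaker peaks spread across the line, and the Trl peak of signal 104 shares its points with the overlapping Trl peak of signal 198.

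Among the interband protein genes, Chro carried the strongest peak of all 9 genes. The gene lies on 3L at 22873702-22878984 (minus strand, 5 transcripts from 3 starts), and its only pooled region was at 22878709-22879095. The signal was 500.7 in replicate 1 (rank 12), 447.0 in replicate 2 (rank 6) and 482.2 in replicate 3 (rank 16). All 3 replicates thus placed it among their strongest regions. The pooled signal of 1430.3 put it at rank 9, level with the peak at rank 10 at CenG1A and mRpS23. The peaks around it included those of CG18549 at rank 7 (1521.6) and Hsp27, a small heat shock protein gene, at rank 11 (1415.3). The peak at rank 8 (1446.1) lay 1315 bp from its nearest start, that of CG32772. The Chro summit lay in the 5' untranslated region, 97 bp from the outermost start and 119 bp from the start used by 3 transcripts. It was also 202 bp from the start of Ssl1, a subunit gene of the general transcription factor TFIIH that is read in the opposite direction, so the peak cannot be given to either gene alone. The innermost Chro start, 703 bp from the summit, had no pooled region, and a region 61 bp from it was listed in replicate 1 alone at signal 32.7 (rank 6687).

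Trl, the gene of GAGA factor, had the most peaks. It lies on 3L at 14747929-14761049 (minus strand, 10 transcripts from 4 starts) and held 6 IDR summits, all inside the gene, with 2 weaker regions of signal 68.8 and 63.9. Among all protein-coding genes 1.55% had 6 or more IDR summits, and among genes of 5 to 20 kb, the class of Trl at 13.1 kb, 1.5% did. The peaks fell in 3 places: the long intron that follows the outermost start, the cluster of inner starts, and the intron downstream of that cluster.

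The strongest of them, at 14759287-14759724, lay in the long intron, 1524 bp downstream of the outermost start and near no annotated start. Its signal was 260.7 in replicate 1 (rank 87), 237.1 in replicate 2 (rank 67) and 303.7 in replicate 3 (rank 68). This was the steadiest of the Trl peaks by rank, and the summits of the replicates were within 19 bp of the pooled summit. The outermost start itself, which serves 1 transcript, had no IDR peak within 500 bp, and the nearest weaker region (63.9) was 598 bp away.

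At the inner starts the peaks were weaker. The start used by 7 of the 10 transcripts, shared with CG42507, was 214 bp from a peak of signal 95.1, the weakest of the 14, with ranks 3674, 6256 and 7656 in replicates 1, 2 and 3. Replicate 3 therefore did not support it. A further start, at 14757336, lay between summits of signal 198.4 (116 bp downstream, ranks 1274, 1613 and 2570) and 103.8 (104 bp upstream). The intervals of that pair overlap, and the region with the summit nearest to the 103.8 peak ranked 6536, 29502 and 2570, so its support by all 3 replicates rests on regions shared with its neighbour. Downstream, introns held peaks of 134.7 at 14756169-14756301 and 150.3 at 14755261-14755690, at 1111 and 1860 bp from that start. The 134.7 peak was supported by all 3 replicates (ranks 2607, 1876 and 4615), but in replicate 3 the region with the nearest summit ranked 8926, beyond the 6410 that count as support. For the 150.3 peak, replicates 1 and 3 gave ranks of 2450 and 1887, and replicate 2 one of 9883.

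Clamp, which encodes the other GA-repeat binding protein of the set, had a single and weaker peak. It lies on 2L at 22165720-22169143 (minus strand, 2 transcripts from 1 start), and the peak of signal 106.4 was at 22168565-22168994, in an intron 363 bp from the start. It ranked 2868 in replicate 1 (signal 56.6), 7750 in replicate 2 (23.1) and 7171 in replicate 3 (28.9). Only replicate 1 supported it. Nearer the start, at 126 bp in the 5' untranslated region, the pooled list had a region of 51.4, under the threshold.

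**Figure D3:**
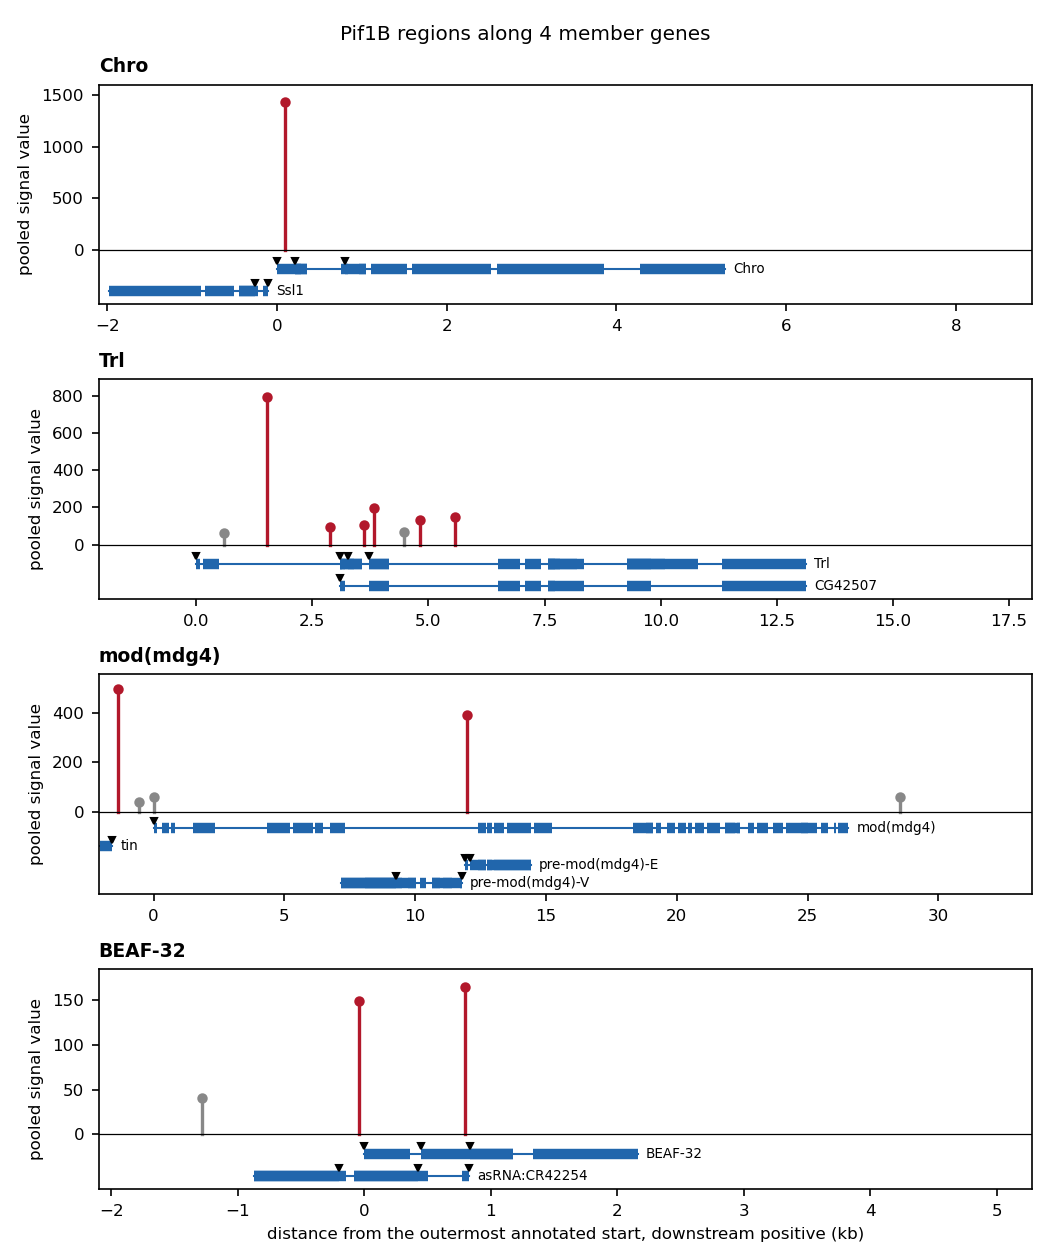
Pooled regions along Chro, Trl, mod(mdg4) and BEAF-32 and neighbouring genes; the y axis is the pooled signal value, the x axis the distance from the gene's outermost annotated start in kb (downstream positive), red stems are IDR peaks, grey stems weaker regions, blue boxes exons and black triangles annotated starts. The Chro summit sits 97 bp inside the outermost Chro start, on the side away from Ssl1, the strongest Trl peak in an intron 1524 bp from a start, and both mod(mdg4) peaks away from the start of mod(mdg4).

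Of the BTB-domain cofactor genes, mod(mdg4) had strong peaks and Cp190 had none. mod(mdg4) lies on 3R at 21350846-21377401 (minus strand), and all 22 of its transcripts begin at the same annotated start. Its messenger RNAs are known to be joined by trans-splicing, in which a common 5' part is spliced to 3' parts transcribed separately, some of them from the other strand. The annotation lists those 3' parts as genes named pre-mod(mdg4). The common start had only a weak region of 59.4, 23 bp from it, with ranks 5968, 10240 and 9610.

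Both IDR peaks of mod(mdg4) lay elsewhere. The inner peak, at 21365327-21365568, was 11965 bp downstream of the common start. Its signals were 130.0 in replicate 1 (rank 607), 127.4 in replicate 2 (rank 399) and 135.1 in replicate 3 (rank 582), with a pooled signal of 390.0 at rank 504. It sat among the starts of 10 of the pre-mod(mdg4) genes: that of pre-mod(mdg4)-E was 52 bp from the summit, those of -AB and -C 146 bp, and those of -AD, -AE, -U, -V, -W, -X and -Y 173 bp. The last 7 share a start and are read in the direction opposite to -E. The peak thus lay at outward-facing starts of 3' parts, and not at the start of the common 5' part.

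The upstream peak, at 21378625-21378894, was 1368 bp from the common start and 208 bp from the start of tin, the homeobox gene of heart formation. Signals were 183.5 in replicate 1 (rank 255), 135.6 in replicate 2 (rank 344) and 178.3 in replicate 3 (rank 303). Its pooled signal of 496.2 was the highest at the gene, but tin was its nearest start. mod(mdg4) was the only gene of the 6 with an IDR summit that had none within 500 bp of a start of its own.

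Among the genes of DNA-binding insulator proteins, BEAF-32 had peaks near the median of the IDR list and pita had peaks under it. BEAF-32, whose product binds clusters of CGATA words, lies on 2R at 14770469-14772630 (plus strand) and is short, at 2.16 kb. A peak of 149.6 was 39 bp upstream of the outermost start, with ranks 1803, 3844 and 3628, and a peak of 165.1 was 34 bp from the innermost start, with ranks 2154, 1839 and 4730. All 3 annotated starts had an IDR summit within 500 bp, and all 3 replicates supported both peaks. The antisense gene asRNA:CR42254 had starts 160 bp and 28 bp from the same summits. A weak upstream region of 40.4 lay 236 bp from the start of Spred.

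pita, the gene of a zinc finger insulator protein, lies on 2R at 23548967-23554712 (minus strand, 1 transcript from each of 2 starts). The outer start had a weak region of 46.4 at 170 bp, with ranks 9581 and 5626 in replicates 1 and 2 and no region in replicate 3. The inner start had a peak of 103.0 at 74 bp, with ranks 5231 and 8361 in replicates 1 and 2 and again none in replicate 3. That summit was also 164 bp from the start of Dcp-1, an effector caspase gene that is nested in this locus. The stronger pita peak, of 120.4, lay downstream of the gene, 65 bp from the start of wmd and 153 bp from that of levy, a cytochrome c oxidase subunit gene. It ranked 3380, 3681 and 8507. No pita peak was supported by all 3 replicates.

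CTCF (3L 7353578-7356713), su(Hw) (3R 14304455-14308589) and Cp190 (3R 15270432-15275241) had no pooled region inside or within 2 kb. The nearest pooled summit was 3907 bp from CTCF (signal 71.5), 7126 bp from su(Hw) (45.2) and 2994 bp from Cp190 (33.2). The nearest IDR summits to a start were 4691, 17025 and 5869 bp away, at signals of 159.3, 229.5 and 126.3. The pooled list thus had a gap around each of these promoters, down to its lowest signal of 19.4.

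Replicate 2 alone did list regions at all 3 of these promoters. Upstream of Cp190, in the 141 bp at 15275261-15275401, its signal was 138.3, rank 328 of 29999, with the summit 116 bp from the Cp190 start and 165 bp from that of CG4338. Upstream of CTCF, at 7356564-7356973, the signal was 36.7 (rank 4047) with the summit 56 bp from the start. Upstream of su(Hw), at 14308633-14309042, it was 32.8 (rank 4800), 249 bp from the start and 251 bp from that of Polr2I. Replicates 1 and 3 had no region overlapping any of them. Over all protein-coding genes with no pooled summit, 16.9% had a replicate 2 summit within 500 bp of a start, against 7.43% for replicate 1 and 6.96% for replicate 3, so such regions were more frequent in that replicate across the genome. A region as strong as that of Cp190 was less common: of the 500 strongest regions of replicate 2, 8 overlapped no pooled region, beside 9 in replicate 1 and 3 in replicate 3. The cause was not tested.

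Across the 9 genes there were 18 distinct annotated starts, and 10 of them, in 5 genes, had an IDR summit within 500 bp. Over all protein-coding genes 15.6% had such a summit, as did 2904 of their 19275 distinct starts. Of the 14 peaks, 8 lay within 500 bp of a start of the member gene, 3 within 500 bp of the start of another gene only (tin, the pre-mod(mdg4) group, and wmd with levy) and 3 near no start, all of those in introns of Trl. Besides the 3 at a start of another gene only, the peaks at Chro, both peaks at BEAF-32, the weakest Trl peak and the inner pita peak were each within 500 bp of a start of another gene. The share of all IDR peaks that lie near a start is not given here, so these counts describe the 14 peaks only.

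Gene span moved with the result. In the under 5 kb class, 2 of 5 members had an IDR summit (BEAF-32 and Clamp, but not CTCF, su(Hw) and Cp190), beside 21.8% of all genes of that class. Of the members from 5 to 20 kb, 3 of 3 had one (Chro, Trl and pita), beside 48.8%. The only member of 20 kb or more, mod(mdg4), had one, beside 65.5%. The 3 genes without a pooled region were all in the shortest class, so span and the absence of regions cannot be told apart over 9 genes.

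**Figure D4:**
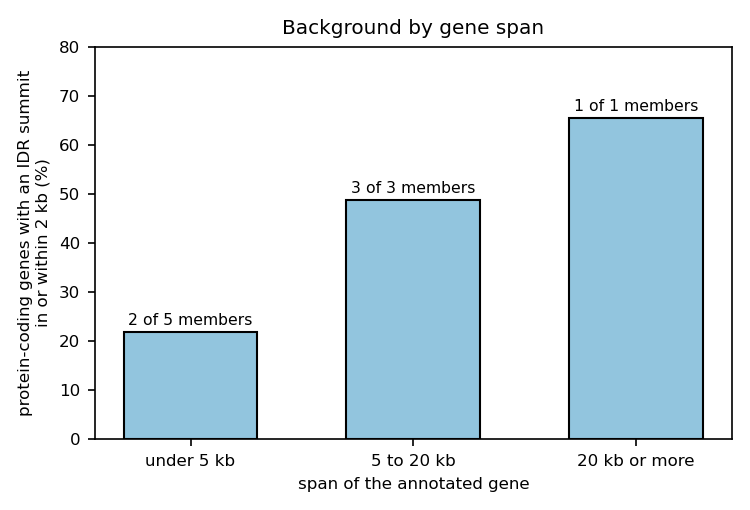
Percent of all protein-coding genes with an IDR summit inside or within 2 kb (bars), by the span of the gene, with the count of the 9 genes in each class above the bar. The share rises from 21.8% to 65.5%, and the members with a peak number 2 of 5, 3 of 3 and 1 of 1.

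Words for the sites of some of these proteins, and for other elements, were then searched on both strands in the 301 bp centred on each summit. No site of Pita was searched. GAGAG was searched as the site of GAGA factor. For CLAMP the word was GAGAGAG, which holds the shorter word. BEAF-32 was given CGATA. The DNA replication-related element (DRE) was given TATCGATA, which holds the BEAF-32 word on both strands. For the core of the Su(Hw) site the word was TGCATA. For the core of the CTCF site it was AGGNGGC. Motif 1 was given GGTCACAC, the E box CACGTG, and the last word searched was TATAAA, the TATA box. A match is a run of letters and not evidence of a bound factor. Overlapping matches were each counted, so a single GA repeat or DRE can give several and the numbers are not of separate sites. GAGAG was in 4 of the 14 peaks, beside 43.1% of all IDR peaks and 34.1% of the weaker pooled regions. The 4 were at Trl (3 peaks) and the inner pita start. The Trl peak of signal 103.8 alone held 11 matches, of which 7 were also GAGAGAG, so the gene of GAGA factor has a GA-repeat stretch at an inner start. The strongest Trl peak held none.

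CGATA was in 4 peaks, beside 30.7% of all IDR peaks: both peaks of BEAF-32 itself, that of Chro, and the peak downstream of pita, which held 5. That pita peak was also the only member peak with a DRE, found in 1.64% of IDR peaks. TGCATA was in 3 (20.7% of IDR peaks), both mod(mdg4) peaks and the inner pita peak. TATAAA was in 6 (41.7%), and the CTCF core, motif 1 and the E box were in 0, beside 8.41%, 1.72% and 3.03%. Within 50 bp of the summit the G and C content had a median of 40.1% over the 14 peaks and 33.7% over all IDR peaks. The upstream and inner mod(mdg4) peaks (22.8% and 28.7%) and the strongest Trl peak (29.7%) were AT-rich, while the GA-rich Trl peak reached 58.4%. Of all IDR peaks, 5.74%, 25.6% and 29.7% had a lower content than the AT-rich peaks, in that order. For the GA-rich peak the share was 97.8%.

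The same search was made within 150 bp of the 18 starts. Of the 8 starts with no IDR summit within 500 bp, 5 had a TATCGATA within 150 bp: that of CTCF, both of Cp190, that of mod(mdg4) and the outer start of pita. Of the 10 starts with an IDR summit, 0 had one. Over 19275 distinct starts of protein-coding genes the word was in 7.13% of those without an IDR summit and 6.85% of those with one, so across the genome the shares were close. CGATA was near 8 of the 8 starts without a summit and 6 of the 10 with one, beside 46.2% and 44.5% of all such starts. GAGAG was near 1 and 3 of them, beside 31.3% and 46.3%. The starts are few, and many belong to the same gene. Those with a summit include 3 at Trl, 3 at BEAF-32 and 2 at Chro that share the same peak. Those without one include both starts of Cp190. The members were also picked by name, so the split describes these genes only.

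Genes of partner proteins were taken from 4 lists, of which 41 of 45 names matched the annotation. With an IDR summit there were 13 of 41 (31.7%), beside the 29.7% of all protein-coding genes. In 8 of the 41 such a summit lay no more than 500 bp from a start, beside 15.6% of all protein-coding genes. Of the 41, 22 had no pooled region, beside 6337 of the 13968 protein-coding genes. The lists were drawn up with earlier results of these data known, and span also differs between them.

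In the list of GAGA factor and CLAMP partners 6 of 13 genes had a peak. Those were Mi-2, a nucleosome remodeller (601.8, in an intron), psq, another GAGAG-binding BTB protein (423.7, 14 IDR summits over 59.4 kb), lola, a BTB zinc finger gene with many isoforms (374.5), lolal, also called batman, a BTB partner of GAGA factor (258.3, 56 bp from its start), fs(1)h, the BET bromodomain gene (153.2), and corto (116.1). Each value is that of the strongest peak of its gene. The strongest fs(1)h peak lay 1939 bp upstream of its start and was supported by 2 replicates. Of the 5 IDR summits at fs(1)h, 3 were nonetheless within 500 bp of a start of the gene. The same held for 3 of 6 at lola, 2 of 14 at psq and 0 of 4 at Mi-2. The genes of the dosage compensation complex, msl-1, msl-2, msl-3, mof and mle, had no pooled region, like Hsf and E(bx).

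Of the insulator and boundary factors 3 of 14 had a peak and 10 had no pooled region. By strongest peak, these were Map60 (572.7, but 1961 bp upstream of its start), shep (497.9, in an intron) and Rm62, a DEAD-box helicase gene (93.2, downstream of it). The RNA-binding protein gene shep had 9 IDR summits over 122.1 kb, 3 of them within 500 bp of a start. The Rm62 peak was supported by 1 replicate. The genes of dwg, ZIPIC, Ibf1, Ibf2, Elba1, Elba2, Elba3, insv, HIPP1 and e(y)2 had none. All 10 were in the under 5 kb class. Of the 13968 protein-coding genes, 6337 likewise had no pooled summit inside or within 2 kb. The lack of a pooled region at CTCF, su(Hw) and Cp190 was thus shared by other insulator genes and by many genes of any kind.

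In the interband and housekeeping promoter list 3 of 7 had a peak: JIL-1, the histone H3 kinase of interbands (526.4, in an intron), nej, the CBP acetyltransferase gene (368.8, 655 bp upstream of its start), and nsl1 (164.4, 149 bp from its start). The values are those of the strongest peaks. Within 500 bp of a start were 1 of 4 IDR summits at JIL-1, 0 of 3 at nej and 1 of 2 at nsl1. Dref, whose product binds the DRE, and M1BP, whose product binds motif 1, had no pooled region. Of cohesin and condensin genes 1 of 7 had a peak, Top2 (124.7, 1184 bp upstream), the topoisomerase II gene.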

How the data were processed

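Per the labels, ChIP-seq of Pif1B-eGFP was done on sonicated chromatin of whole pupae, in 3 biological replicates. The deposited dm6 lists hold, for each region, a signal value that the authors' peak caller wrote, with its summit. In the sources used here, caller, aligner, IDR threshold and depth are not given. Control libraries and dm3 lists were not analysed here. The 6410 IDR peaks had the values of the 6410 strongest of the 29999 pooled regions. Regions of 430 bp, 73.5% of IDR peaks and 9 of the 14 described, may be a fixed width of the caller, which limits the precision of their summits.

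Genes and starts came from Ensembl release 115 (BDGP6) and sequence from RefSeq, same assembly. Coordinates are 1-based. Summits were assigned in Python 3.11.15 with numpy 2.4.6, pandas 2.3.3 and matplotlib 3.10.9, and the assignment was checked on simulated data. With 1 group and no contrast, nothing was tested, and replicates may share technical error. Named were the 9 genes, genes with a start within 500 bp of a member's IDR summit, the 2 IDR peaks above and below the strongest, and up to 6 genes per partner list by signal; partner genes with no peak and the genes beside weaker or replicate 2 regions were named after their values were seen. The unmatched names were Mzfp1, Skeletor, Mtor and SA. Members, lists and motifs were chosen with earlier results of these data known, and the motif shares over all starts were added after the data had been seen. Alternatives were other distances, overlap rules, stricter lists, leaving out each replicate, and RefSeq genes.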

Additional observations from a re-analysis of the deposited data

How the results depend on the processing

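Counting only summits inside the gene, 13.4% of protein-coding genes had an IDR summit, beside 6 of the 9 members. Over the 14 IDR summits at the members, 8 were in the upper 50% of the IDR list by signal and 9 were supported by all 3 replicates; leaving out each replicate in turn, with support by both others required, gave 9 to 11. The 5 genes with an IDR summit at a start became 3 in the upper 50% of the list, 3 with support by all 3 replicates, and 3 without replicate 1, 2 or 3. Another 39 recomputed counts and shares stayed within 1.5 times their value, a limit that a fall from 6 to 4 just meets. The 6 genes with an IDR summit became 4 in the upper 50% of the list and 4 with support by all 3 replicates. They became 4 without replicate 1, 4 without replicate 2, 5 without replicate 3 and 7 within 5 kb. The 9 peaks supported by all 3 replicates became 6 with replicate summits within 100 bp, and 13 with whole relaxed lists. The rank of the BEAF-32 peak in replicate 2 went from 1839 to 4834 when the region with the nearest summit was taken, and 17 other ranks stayed close. RefSeq genes, an alternative added after the data had been seen, gave 6 genes, 14 summits and 5 genes with a summit at a start. No paired analysis was possible because there was 1 group. Depth is unknown, so a gene without a region may still be bound below what these lists record.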
